A study of Talpa occidentalis and Mus musculus with 35 samples.

Results

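FGF11, FGF12, FGF13 and FGF14 are the 4 FGF homologous factors, described here as gene models in the annotation of a mole genome. They were taken by symbol, after removal of copy and low-confidence marks, from the 23336 gene models and 16196 symbols of the deposited annotation of the Iberian mole (Talpa occidentalis, assembly talOcc3). Each of the 4 symbols had 1 locus, as most symbols did, since 14.6% of all symbols had more than 1. All 4 models carried the label EVM, whose meaning no header or label explains.

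The FGF homologous factors share the folded core of the fibroblast growth factors but lack a secretion signal. They stay inside the cell, where they bind the cytoplasmic tails of voltage-gated sodium channels and tune their inactivation, above all in neurons and heart muscle. Genes of this family can begin with one of several first exons, and such alternative starts give proteins with different amino-terminal ends that share the rest of the chain.

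The study collected 35 polyadenylated RNA libraries in 16 groups of 2 or 3, to look for genes behind the ovotestis, the gonad of female moles that holds an ovarian and a testicular part. Wild-type moles gave 19 libraries, from ovotestis and testis at embryonic day 15 and from the ovarian part, testicular part and testis at postnatal day 7 and in adults. Wild-type CD1 mice gave ovary and testis at embryonic day 13.5, postnatal day 7 and 10 weeks. Ovaries at embryonic day 13.5 came also from Fgf9 mutant mice and from wild-type B6 mice, whose 4 strain labels all differ, running from C57BL/6 to C57BL/9, and no label names the allele or any driver. The deposited table analysed here has no value per library. The levels of FGF11 to FGF14 in these gonads were therefore not analysed here, the library depth is unknown, and the values below describe 1 annotation with no replicates.

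The coding core of the family is 2 consecutive exons, of 104 and 199 bases, present at the same lengths in all 4 mole models and all 4 mouse genes. The mouse sequences are shown because they carry the shared part of the family and mole sequence was not used here. They were read from the GENCODE M21 transcripts (build GRCm38), 5′ to 3′ on the coding strand, which is the minus strand for each. Capitals mark bases that are the same in all 4 genes. In the 104-base exon, the third coding exon of the mouse genes, 52 bases (50%) were the same in all 4.

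Fgf11, chr11:69799352-69799455: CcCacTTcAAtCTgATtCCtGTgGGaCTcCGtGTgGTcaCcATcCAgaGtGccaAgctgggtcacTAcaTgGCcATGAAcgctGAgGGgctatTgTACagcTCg
Fgf12, chr16:28372913-28373016: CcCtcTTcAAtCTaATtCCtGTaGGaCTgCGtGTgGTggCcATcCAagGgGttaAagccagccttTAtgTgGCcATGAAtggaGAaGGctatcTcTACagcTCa
Fgf13, chrX:59125894-59125997: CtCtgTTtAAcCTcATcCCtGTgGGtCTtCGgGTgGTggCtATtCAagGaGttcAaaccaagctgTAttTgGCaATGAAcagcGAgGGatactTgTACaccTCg
Fgf14, chr14:124132463-124132566: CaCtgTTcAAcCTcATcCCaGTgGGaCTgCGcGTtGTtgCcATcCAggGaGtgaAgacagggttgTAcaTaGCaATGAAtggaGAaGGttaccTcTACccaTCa

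In the 199-base exon, the fourth coding exon, 106 bases (53.3%) were the same in all 4.

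Fgf11, chr11:69798564-69798762: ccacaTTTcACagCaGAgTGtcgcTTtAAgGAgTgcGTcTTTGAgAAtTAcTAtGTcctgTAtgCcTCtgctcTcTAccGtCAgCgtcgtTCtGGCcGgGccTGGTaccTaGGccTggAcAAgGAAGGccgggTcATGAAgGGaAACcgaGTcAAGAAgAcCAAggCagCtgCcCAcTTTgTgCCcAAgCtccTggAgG
Fgf12, chr16:28189434-28189632: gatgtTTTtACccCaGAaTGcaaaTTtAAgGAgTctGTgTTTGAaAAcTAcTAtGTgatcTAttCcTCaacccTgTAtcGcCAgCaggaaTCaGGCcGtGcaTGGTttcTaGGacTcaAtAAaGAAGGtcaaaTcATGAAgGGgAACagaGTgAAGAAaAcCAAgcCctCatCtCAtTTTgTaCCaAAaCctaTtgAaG
Fgf13, chrX:59067401-59067599: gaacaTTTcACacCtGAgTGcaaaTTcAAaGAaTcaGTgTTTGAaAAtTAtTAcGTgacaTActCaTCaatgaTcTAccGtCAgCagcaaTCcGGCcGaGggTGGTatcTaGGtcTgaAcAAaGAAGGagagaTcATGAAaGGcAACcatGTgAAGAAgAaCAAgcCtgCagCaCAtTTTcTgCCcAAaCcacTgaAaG
Fgf14, chr14:123983769-123983967: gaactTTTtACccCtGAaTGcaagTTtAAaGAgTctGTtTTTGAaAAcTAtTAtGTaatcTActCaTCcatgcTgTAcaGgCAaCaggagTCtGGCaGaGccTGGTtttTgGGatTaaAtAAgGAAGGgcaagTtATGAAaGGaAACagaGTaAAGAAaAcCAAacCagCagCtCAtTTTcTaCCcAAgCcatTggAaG

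The second mouse coding exon had 111 bases in all 4 genes, of which 57 (51.4%) were shared. Over these 3 exons, 414 bases compared without gaps, Fgf12 and Fgf14 were the closest pair, with 75.1% identical bases. Fgf13 and Fgf14 shared 72.2% and Fgf12 and Fgf13 72.0%. Fgf11 stood apart from each of the others, with 66.9% to Fgf12, 66.4% to Fgf13 and 64.7% to Fgf14. Between 58.3% and 71.8% of the differing bases lay at the third position of a codon, the position where many changes leave the amino acid the same. In the 104-base exon the 6 pairs within the family shared 61.5% to 72.1% (median 69.7%). Of the other mouse FGF genes, 15 have a 104-base coding exon of the same phase, and its identity to the exon of Fgf11 to Fgf14 was 33.7% to 56.7% (median 50%) over 60 pairs.

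FGF11 lay on scaffold 25 of talOcc3, at 16916499 to 16918033 on the plus strand, with 4 coding exons and 501 coding bases. FGF12 lay on scaffold 4, at 36125146 to 36302910 on the minus strand, with 3 coding exons and 414 coding bases. FGF13 was placed on scaffold 30, at 8888118 to 8952133 on the plus strand, with 4 coding exons and 582 coding bases. FGF14 was placed on scaffold 39, at 7723196 to 7823640 on the minus strand, with 4 coding exons and 478 coding bases. The models hold coding exons only, so no untranslated part enters any length below.

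Exon by exon, the 4 mole models matched the mouse genes in the middle and parted from them at the ends. The mouse transcript with the longest coding sequence was taken for each gene, with the stop codon counted. Its first coding exon, of 193 bases in Fgf11, 199 in Fgf12, 187 in Fgf13 and 208 in Fgf14, had no counterpart in any of the 4 mole models. The second coding exon, of 111 bases in every mouse gene, had 111 bases in mole FGF12. It was longer in mole FGF11, by 16 bases at 127, and in mole FGF13, by 31 bases at 142. In mole FGF14 the exon in that place had 52 bases, 59 fewer than in the mouse. Exons were paired by their place relative to the 104-base exon. Whether the opening exons that differ in length match the second mouse exon in sequence was not tested. The third and the fourth exons had 104 and 199 bases in both species for all 4 genes. The fifth and last exon had the mouse length in FGF11, 71 bases, and in FGF13, 137 bases. Mole FGF14 ended with 123 bases against 137 in the mouse, and mole FGF12 had no exon for the 119 bases that close the mouse gene. FGF12 is thus the model that lacks both end exons and keeps the 3 middle ones unchanged in length.

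**Figure D1:**
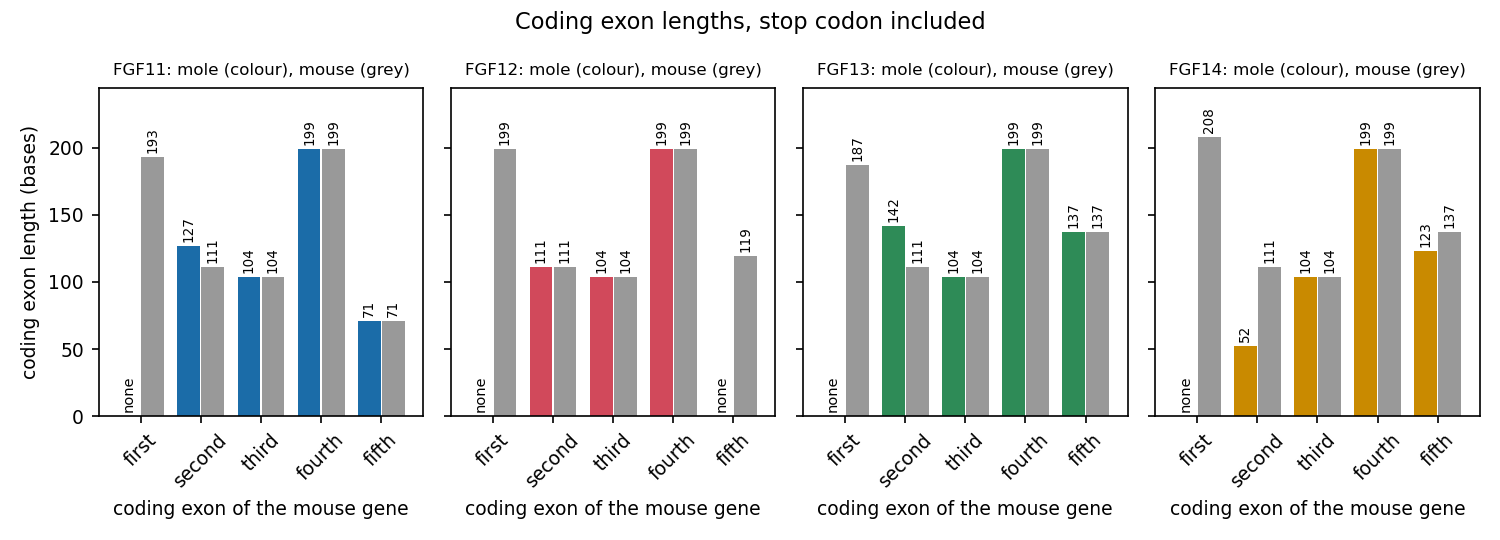
Length in bases of each coding exon, numbered from the 5′ end as in the longest mouse coding transcript, in the mole model (coloured bars) and the mouse gene (grey bars), with the stop codon counted; "none" marks an exon that the mole model lacks. The third and the fourth exons stand at 104 and 199 bases in all 4 panels, and no mole model has a first exon.

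The reading frame, given as the phase (the number of bases at an exon's start that complete the previous codon), followed the same pattern. The 104-base exon had phase 2 and the 199-base exon phase 0 in all 4 mole models and all 4 mouse genes. The models of FGF11, FGF13 and FGF14 opened at phase 0. The FGF12 model opened at phase 2, as the second mouse exon does, and 3.46% of the mole models with a phase opened at a phase other than 0. The coding lengths of FGF11, FGF12 and FGF13 were multiples of 3 and that of FGF14 was not, its 478 bases leaving 1 over. Because the FGF12 model opens at phase 2, it starts inside a codon, and its 414 bases are not whole codons in that frame. Across all models 12.2% had a coding length that is not a multiple of 3.

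A 104-base coding exon was found in many mole models, and one followed directly by a 199-base exon in few. The pair was picked because all 4 genes hold it, so their place in the counts below was fixed. How often other pairs of exact lengths occur was not counted, so the low count is not read as a trait of the family. Among the 17565 mole models with more than 1 exon, 985 (5.61%) held a 104-base exon, and all 4 of FGF11 to FGF14 did. A 104-base exon followed directly by a 199-base exon occurred in 5 models (0.0285%), FGF11, FGF12, FGF13, FGF14 and MCM8, which encodes a helicase of the MCM family used in DNA repair. In MCM8 the 104-base exon was exon 5 of 18 and had phase 0, not 2. When the first and last exons of a model were left out, the pair was found in 4 models, FGF11, FGF13, FGF14 and MCM8, because the 199-base exon is the last exon of the FGF12 model.

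Most of the other FGF ligands with a locus had an exon of the first length of that pair, and the second length was not found in them. Of 18 other FGF ligands looked for, 15 had a locus, and FGF2, FGF3 and FGF19 had none. A 104-base exon was present in 11 of the 15, and 3 (FGF8, FGF17 and FGF18, one structural subfamily) had a 107-base exon. FGF4 had neither. The 107-base length was picked because it was the most frequent among the ligands without a 104-base exon. Its share among all models is not given here, so that count is not read as a trait of these 3. A 199-base exon was present in 0 of the 15. The share of all models with a 199-base exon is not given here, so this absence is not read as a trait of the ligands. The most common number of exons was 3, in 11 of the 15, FGF1, FGF5, FGF6, FGF7, FGF8, FGF9, FGF10, FGF17, FGF20, FGF21 and FGF23, and mole FGF12 had the same number without its end exons. FGF18 and FGF22 had 4 exons, as FGF11, FGF13 and FGF14 did.

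The missing ends left all 4 mole models shorter than the longest mouse coding sequence. FGF11 reached 73.9% of it (501 of 678 bases), FGF12 56.6% (414 of 732), FGF13 78.9% (582 of 738) and FGF14 63.0% (478 of 759). Across 12406 genes named once in both annotations the median was 99.7%, with quartiles of 89.5% and 106%. A coding length under 80% of the mouse was found in 16.4% of those genes and in all 4 FGF homologous factors. It was found in 1 of the 15 other FGF ligands, FGF4 at 50.2%, and the median of the 15 was 100%. In the ranking of all compared genes, 6.55% were as short as FGF12 or shorter, 8.37% as FGF14, 12.8% as FGF11 and 15.7% as FGF13. With the shortest complete mouse transcript that holds the pair of core exons as the measure, FGF13 reached 103%, FGF12 75.8% and FGF14 64.2%.

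In the mouse, the first coding exons that the mole models lack lie at very different distances from the shared core. Distance is given from the 5′ edge of the first exon to the 5′ edge of the 104-base exon. Among complete transcripts that hold the pair of core exons, Fgf11 had 1 first coding exon, 2.17 kb upstream. Fgf12 had 2, one of 199 bases at 72.2 kb and one of 13 bases at 379.8 kb. Fgf13 had 3, of 187 bases at 8.07 kb, 28 bases at 40 kb and 12 bases at 441 kb. Fgf14 had 2, of 193 bases at 60.0 kb and 208 bases at 544 kb. Fgf11 thus has its start close to the core, and Fgf12, Fgf13 and Fgf14 each have both a nearer and a far more distant start.

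The space upstream of the mole models was likewise small in FGF11 and large in the rest. From the 104-base exon to the next upstream gene named once in both species the mole had 3.89 kb in FGF11, 378 kb in FGF12, 553 kb in FGF13 and 476 kb in FGF14. In the mouse the same distance was 4.16 kb to Tmem102 for Fgf11, 455 kb to Mb21d2 for Fgf12 and 873 kb to F9 for Fgf13. The neighbour of mole FGF14 on that side, TPP2, lies on another mouse chromosome, so that distance has no mouse value. Whether the mole assembly holds the missing first exons in these stretches was not tested, since mole sequence was not used here.

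**Figure D2:**
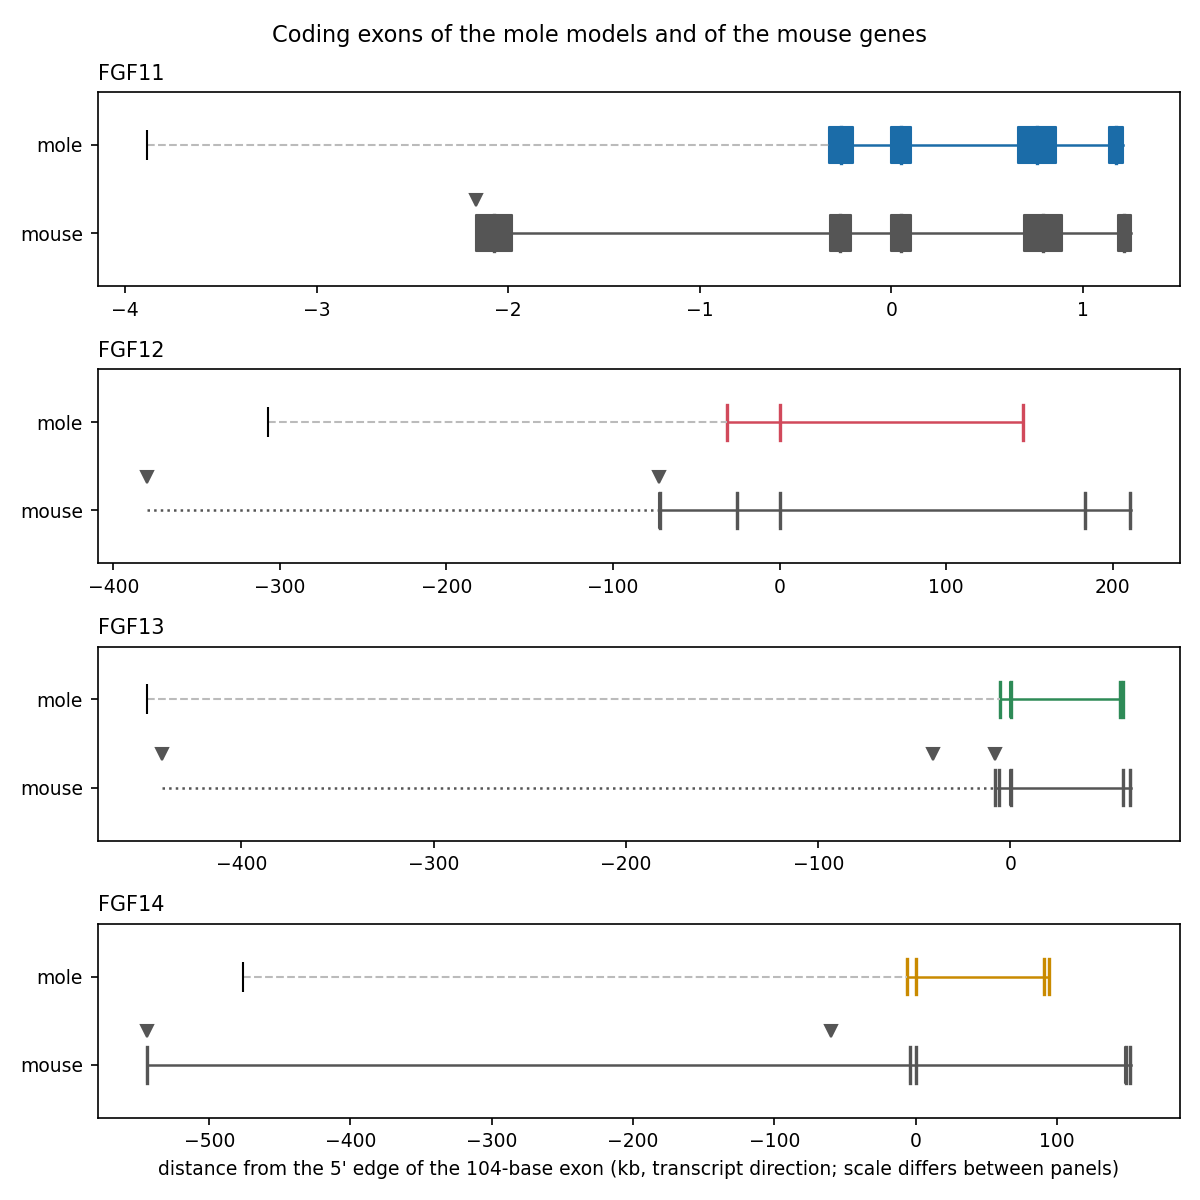
Coding exons (vertical marks, drawn wider than to scale except in the FGF11 panel) of each mole model (coloured) and of the longest mouse coding transcript (grey), placed by distance in kb from the 5′ edge of the 104-base exon, in transcript direction, with a scale of its own in each panel. Triangles mark the mouse first coding exons, a dotted line reaches to those of other transcripts, and the dashed line runs to the nearest mole locus upstream (black tick). The upstream mouse exons, up to 544 kb away in FGF14, have no counterpart in the mole models, and the dashed stretches are 3.56, 275, 444 and 469.7 kb long.

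The introns between the exons that the species share kept the contrast between a compact FGF11 and 3 large genes. The intron between the 104-base and the 199-base exon had 560 bases in mole FGF11 and 589 in the mouse. The same intron had 145992 bases in mole FGF12 and 183280 in the mouse, 56637 and 58294 in FGF13, and 90496 and 148495 in FGF14. It was the longest intron of each of the 4 mole models. The order of the 4 genes by this intron was the same in both species, FGF12, FGF14, FGF13 and then FGF11. Mole length over mouse length was 0.951 in FGF11, 0.797 in FGF12, 0.972 in FGF13 and 0.609 in FGF14.

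Those ratios were read against 79152 introns of 9573 genes that lie between exons of the same lengths in both species. Their median ratio was 0.989, with quartiles of 0.738 and 1.22. The FGF11 and FGF13 values lay inside the quartiles, and so did FGF12, while 16.6% of all matched introns had a ratio as low as that of FGF14. For the 672 matched introns of at least 50 kb in the mouse, a class that takes in the 3 large introns of the family, the median was 0.897 and the quartiles 0.734 and 1.02. Among these the ratio of FGF14 was below the lower quartile and those of FGF12 and FGF13 were within the quartiles.

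The smaller introns varied more. The intron before the 104-base exon had 31359 bases in mole FGF12 against 25261 in the mouse, a ratio of 1.24, and 76.2% of matched introns had a ratio as low or lower. It had 197 bases against 210 in FGF11, 5533 against 5842 in FGF13 and 5990 against 3615 in FGF14, where the preceding exon differs in length between the species. The intron after the 199-base exon had 277 bases in mole FGF11 and 291 in the mouse. In FGF13 it had 1264 bases against 3731, a ratio of 0.339, and 4.56% of matched introns had a ratio as low or lower. In FGF14 it had 3481 bases against 3286. This last FGF13 intron was the member value farthest from equal length, in the gene whose large intron was nearest to it.

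**Figure D3:**
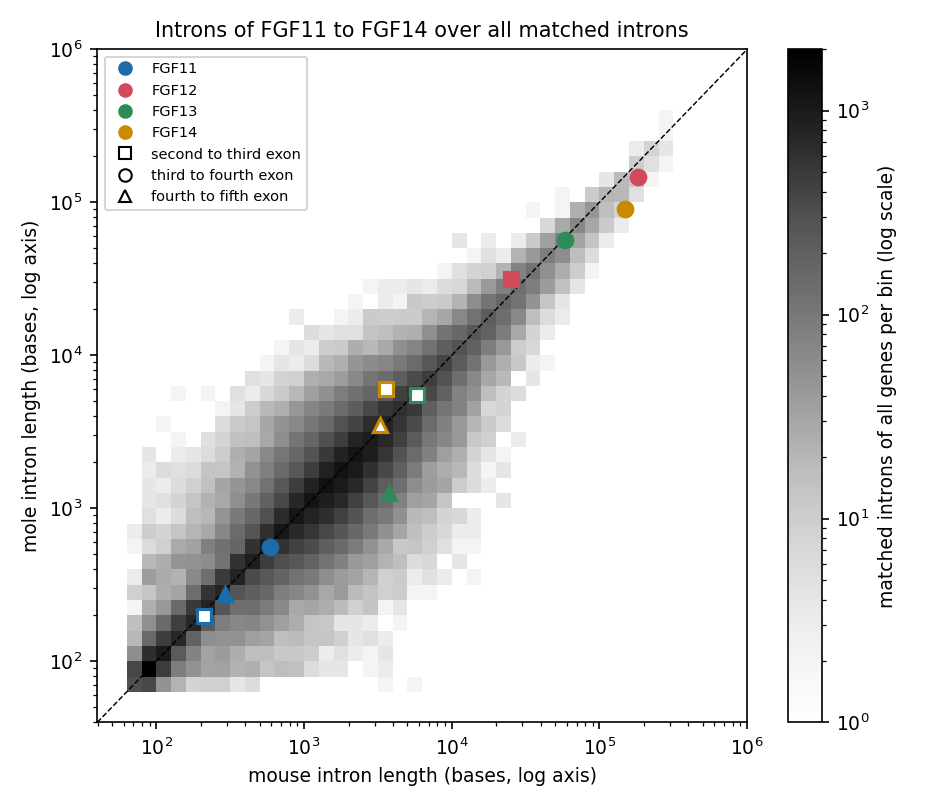
Mole against mouse intron length in bases, both axes logarithmic, for the introns of FGF11 to FGF14 over all matched introns of the 2 annotations (grey, number per bin); the dashed line marks equal length, and open symbols mark introns where 1 flanking exon differs in length. The large introns of FGF12 and FGF14 lie below the line at ratios of 0.797 and 0.609, and the last intron of FGF13 lies lowest under it at 0.339.

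The introns set the size of the models. FGF11 spanned 1.53 kb, of which coding sequence took 32.6%. FGF13 spanned 64.0 kb, FGF14 100.4 kb and FGF12 178 kb, with coding shares of 0.909%, 0.476% and 0.233%. The median model spanned 7029 bases. A span as long or longer was found in 71.1% of all models for FGF11, 9.31% for FGF13, 5.23% for FGF14 and 2.32% for FGF12. A span of 100 kb or more was reached by 2 of the 4, FGF12 and FGF14, and by 5.27% of all models; FGF14 was only just inside. A longest intron of 50 kb or more was present in 3 of the 4, FGF12, FGF13 and FGF14, and in 4.86% of the models with more than 1 exon. None of the 4 was long in coding sequence, for which 75.9% to 86.0% of all models were as long or longer.

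The other FGF ligands overlapped FGF11 in size and mostly not the rest. Their spans ran from 725 to 71168 bases with a median of 8079, so FGF13 fell inside their range and FGF12 and FGF14 above it. The 3 longest were FGF10 (71168 bases), FGF7 (50448) and FGF9 (29329), the ligand whose mutant the study sampled. A span of 100 kb was reached by 0 of the 15, and an intron of 50 kb by 1, FGF10 with 65594 bases. All these spans run from the first to the last coding exon of the model, and the 4 FGF homologous factors lack upstream exons. In the mouse, where those exons are annotated, the coding spans were 3.42 kb for Fgf11, 590.4 kb for Fgf12, 504 kb for Fgf13 and 696 kb for Fgf14.

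**Figure D4:**
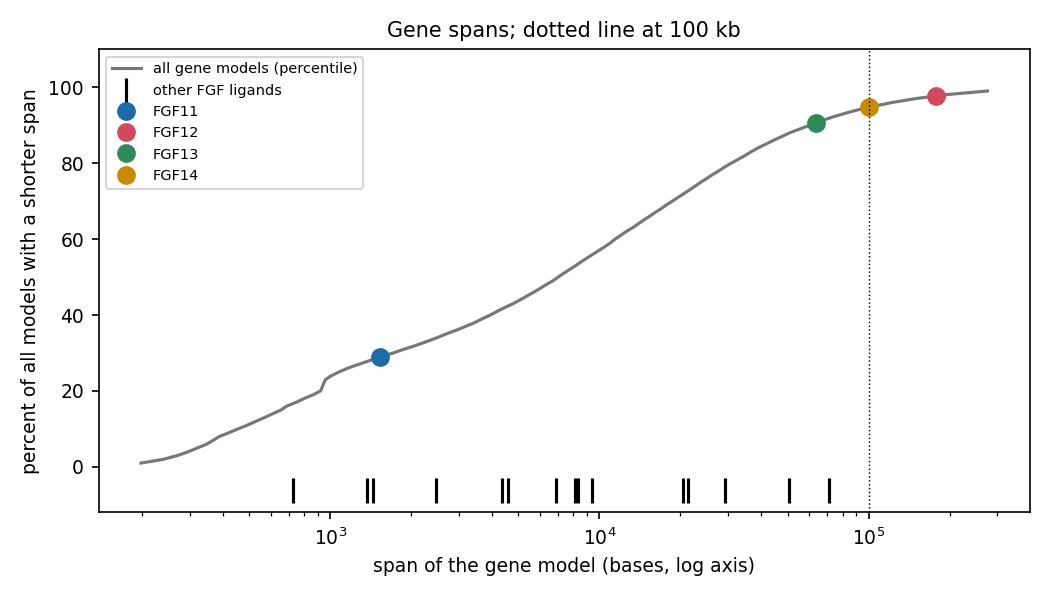
Span of the gene models in bases (logarithmic axis) against the percent of all models with a shorter span (grey curve), with FGF11 to FGF14 as coloured points, the 15 other FGF ligands as black marks under the curve, and a dotted line at 100 kb. FGF11 sits low on the curve, near the shortest other FGF ligands, FGF4, FGF21 and FGF22 (725, 1368 and 1446 bases). FGF12 and FGF14 sit beyond the longest of the other ligands, at 71168 bases.

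The deposited score of a model, divided by the number of reference transcript bases it was aligned to, differed little within the family. No header or label says what this score counts. FGF11 had 775 over 501 aligned bases, 1.55 per base, and FGF12 had 648 over 414, 1.57 per base. FGF13 had 854 over 554, 1.54 per base, and FGF14 had 724 over 478, 1.51 per base. The median of 21473 scored models was 1.21, with quartiles of 0.923 and 1.41, so all 4 lay above the upper quartile. A score per base as high or higher was found in 6.19% of models for FGF12, 7.78% for FGF11, 8.30% for FGF13 and 10.9% for FGF14. The other FGF ligands ran from 0.568 (FGF6) to 1.68 (FGF9) with a median of 1.5, so this measure did not set FGF11 to FGF14 apart from them. In FGF13 the alignment began at base 29 of the model and left the first 28 bases of its 142-base opening exon outside. The alignments of FGF11, FGF12 and FGF14 covered the whole model.

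The gap to the nearest upstream mole locus was small in FGF11 and large in FGF12, FGF13 and FGF14, while downstream FGF14 had a small gap too. FGF11 had 3.56 kb to TMEM102 upstream and 2.03 kb to CHRNB1, the beta subunit of the muscle acetylcholine receptor, downstream. Gaps as long or longer were found upstream in 84.9% and downstream in 86.2% of 20698 models. Around it lay TMEM102, LOC107983988, C17orf74, SPEM1 and NLGN2 on one side and CHRNB1, ZBTB4, SLC35G6, POLR2A and SENP3 on the other, the most distant, SENP3, being 83.8 kb away.

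From the ends of its model, FGF12 had 275 kb upstream and 387 kb downstream, and 6.45% and 3.35% of models had gaps as long. Its upstream neighbour was a single-exon locus named as a copy of SNRPF, followed by MB21D2 at 346 kb, HRASLS, ATP13A5 and ATP13A4. Downstream lay ATP5S, CCDC50 at 512 kb, OSTN, GMNC and IL1RAP at 1039 kb. One locus lay inside FGF12, at 36238032 to 36240894 on the opposite strand, within the 145992-base intron. It was named as a copy of MDK, the gene of the growth factor midkine, with 2 exons, 425 coding bases and 90.5% of the highest score for that symbol.

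FGF13 had 444 kb upstream, and 3.31% of models had as much. The nearest locus there was a single exon named as a copy of PNISR, at 6.99% of the highest score for that symbol, and beyond it lay F9, which encodes a clotting factor, and MCF2. Downstream it had 90 kb to MAGEA10, and then 1 locus without a symbol and a copy of the retroviral envelope gene ERVFRD-1. FGF14 had 469.7 kb upstream to TPP2, which encodes a peptidase, and 7.01 kb downstream to ITGBL1. Upstream gaps as long were found in 3.06% of models and downstream gaps in 66.5%. Beyond TPP2 came METTL21C, CCDC168, TEX30 and KDELC1, and beyond ITGBL1 came NALCN, which encodes a sodium leak channel, TMTC4, GGACT and PCCA.

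Gene order around the family was largely the mouse order, with 1 break, beside FGF14. The comparison used 12410 genes named once in both annotations, and 11433 of 12295 adjacent pairs were kept. FGF11 kept TMEM102 and CHRNB1, on mouse chromosome 11. FGF12 kept CCDC50 and MB21D2, on mouse chromosome 16, and FGF13 kept F9 upstream, on the mouse X chromosome. FGF14 kept ITGBL1 and not TPP2. Both neighbours were kept by 3 of the 4 and by 88.4% of the 12223 genes that have 2. When every symbol was entered with its best-scoring locus, ATP5S and MAGEA10 came between, and FGF12 and FGF13 kept 1 neighbour each.

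The break at FGF14 fell at the end of a mouse chromosome. Fgf14 is the last of 902 coding genes on mouse chromosome 14, with 0 coding genes beyond it. On the mole scaffold the loci downstream of FGF14, from ITGBL1 to CLYBL, all had their mouse counterparts on chromosome 14. The loci upstream, TPP2, METTL21C, TEX30, KDELC1 and BIVM, had theirs together on mouse chromosome 1, between 43934089 and 44143139 of GRCm38. SLC10A2, the farthest locus looked at on the upstream side, had its counterpart on mouse chromosome 8. A later assembly of the mole, MPIMG_talOcc4v2.1, also placed FGF14 between TPP2 and ITGBL1, with 0 unnamed coding genes between. It gave FGF11 and FGF12 the same named neighbours as the mouse, and FGF13 the same upstream one. In FGF12 it had 1 coding gene without a name between the gene and its neighbour on each side.

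**Figure D5:**
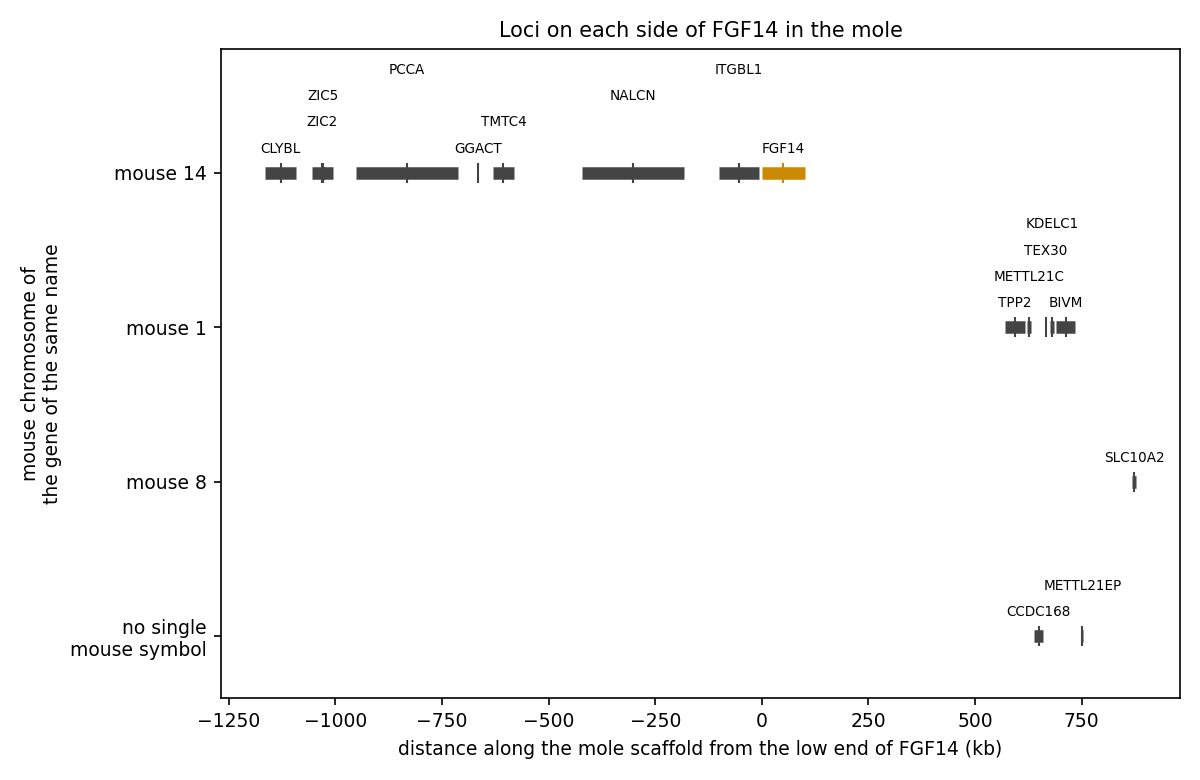
Loci on each side of FGF14 on its mole scaffold, drawn to scale by distance in kb from the low end of FGF14, with the mouse chromosome of the gene of the same name on the vertical axis. Loci to the left of FGF14 (orange) stand on mouse chromosome 14, and those to the right, beyond a gap of 469.7 kb, stand on mouse chromosomes 1 and 8 or have no single mouse symbol.

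Distances between the core exons and the kept neighbours were set beside those of the mouse. No such ratio was computed over all genes, so shorter distances are not read as a trait of these loci. The median ratio of all matched introns was also below equal length, at 0.989. Downstream, from the 3′ edge of the 199-base exon, the mole had 2.38 kb to CHRNB1 against 2.68 kb in the mouse for FGF11. FGF12 had 512 kb to CCDC50 against 743 kb, a ratio of 0.688. FGF14 had 10.6 kb to ITGBL1 against 10.4 kb, the one longer distance of those given here. Upstream the ratios were 0.934 in FGF11, 0.831 in FGF12 and 0.633 in FGF13.

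The sodium channels that the FGF homologous factors bind were in part split over several models. Of the alpha subunits, SCN4A had 3 loci and SCN1A and SCN8A had 2 each. The loci of each of these lay on 1 scaffold and covered largely separate intervals of the reference transcripts. Each FGF homologous factor had 1 locus, as most symbols of the annotation did, with a model that lacks the first mouse coding exon. The 3 longest alpha subunit models were SCN9A (74087 bases), SCN3A (66794) and SCN2A (59805). No alpha subunit model had an intron above 12419 bases, whereas FGF12, FGF13 and FGF14 each had one above 50 kb. Introns were measured inside single models, so any intron between the parts of a split gene is not counted.

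Among the beta subunits the longest model was SCN3B, with 20960 bases. The 3 scaffold proteins of the JNK pathway looked for, among them MAPK8IP2 (islet-brain 2), which FGF homologous factors are known to bind, each had 1 locus, the longest being MAPK8IP2 with 5545 bases. Of the FGF receptors and co-receptors, which secreted FGF ligands use, 6 of 7 had a locus and FGFRL1 had none, and the longest was FGFR2 with 69258 bases. A span of 100 kb or an intron of 50 kb was reached by 0 genes of these lists, measured in the best-scoring model of each. Some of these models are short, such as MAPK8IP3 with 2 exons and 429 coding bases. Spans and introns of the whole genes may therefore be longer.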

How the data were processed

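The deposited table lists gene models on mole assembly talOcc3, with 1-based positions, exon phases and a score that the authors gave each transcript model beside a reference transcript and the stretch of it that aligned. No header or label says what the score counts. Per the submitters' processing notes the tool was STAR 2.6.1d and a build was mm9, neither with a stated role; the number of unused columns of per-sample values was 0. RNA libraries followed standard Illumina protocols, per the labels' protocols.

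Gene lines were joined to their transcript and coding lines with numpy 2.4.6 and scipy 1.17.1 (Python 3.11.15), and figures were drawn with matplotlib 3.10.9. Mouse values come from complete protein-coding transcripts of GENCODE M21 (GRCm38), with the 3 bases of the stop codon added, because the last mole exons held it where lengths could be compared (FGF11 and FGF13). Introns of all genes were matched between species by the lengths of both flanking exons. Gaps run to the nearest locus that does not overlap. Gene order used genes named once in both annotations, with orientation. The later mole assembly gave names and neighbours only, and no position was converted between builds.

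No sample enters any comparison, so no test across samples was made. Values are set beside a percent among all models where one was computed. Others, such as the exon identities and the distances to kept neighbours, have none. The 95% exact binomial intervals of those percents count models, not animals, and served to tell whether another setting moved them. The steps were tested on simulated data. The members, the lists of genes and the rule for which are named (all 4 members, 5 loci on each side and any inside, list members at 0 or several loci, the 3 longest, models with the same run of exons) were chosen with earlier results of these data known. Some results that the rule covers are not reported here. MCM8 follows from that rule; percents of mouse coding length, intron ratios and exon identities were added after seeing the files.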

Additional observations from a re-analysis of the deposited data

How the results depend on the processing

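Of 65 values under other settings, 33 stayed within the main value's interval or within 1.5 times a main count, 32 moved and 0 reversed. Lengths, gaps, counts and percents have no sign to reverse, so the last count says little. Some values that moved crossed a set limit, as when the coding length of FGF13 went from 78.9% to 103% of the mouse. Each of the 4 had 1 locus with names exactly as written, and spans were the same on transcript lines. The percent of models with as long a span depended on the set: among models with a symbol it was 75.9 for FGF11, 10.1 for FGF13 and 5.65 for FGF14. Among models with more than 1 exon it was 93.0 for FGF11, 3.09 for FGF12, 12.4 for FGF13 and 6.95 for FGF14, and on scaffolds annotated to 1000000 bases or beyond 78.1, 2.66, 10.6 and 5.94. At 200 kb in place of 100 kb, 0 of the 4 reached the span, and at 100 kb in place of 50 kb, 1 had such an intron (FGF12). Per coding base in place of aligned base the score of FGF13 was 1.47, and the percent of models with as high a score was 4.36, 3.46, 10.2 and 6.38 for FGF11 to FGF14. Among scored models with more than 1 exon that percent was 8.69 for FGF13 and 11.5 for FGF14. With neighbours of more than 1 exon and a symbol the upstream gap was 346 kb for FGF12 and 548 kb for FGF13. With neighbours on the same strand it was 346 kb for FGF12, 602 kb for FGF13 and 523 kb for FGF14, and the downstream gap 147 kb for FGF13 and 182 kb for FGF14. With the best-scoring locus of each symbol FGF12 and FGF13 kept 1 neighbour each. The shortest complete mouse transcript, a setting chosen after seeing the data, put the coding length at 75.8% in FGF12, 103% in FGF13 and 64.2% in FGF14; in all 4 it stayed under 90% of the longest. The pair of 104-base and 199-base exons was found in 4 models with internal exons only, all of them EVM models, and in 5 with the first and last exons included.

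A run of 3 internal exons could not be searched, because the 4 models have at most 2 internal exons, and proteins were not compared. No paired analysis was possible because the deposited table holds no value per library, so replicate numbers have nothing to pair. The values rest on 1 assembly and its gene models, for which read depth and model support are unknown here. A missing exon is missing from the model; its absence from the genome was not tested. Matching introns by exon length leaves out genes whose exons changed length.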
